A study of Homo sapiens with 24 samples.

Results

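Untreated HL60 cells were set against untreated U937 cells. Both are human acute myeloid leukaemia lines that the labels place in the class of low oxidative phosphorylation (OXPHOS). The comparison uses 6 of the 24 arrays of the series, 3 of HL60 and 3 of U937, chosen by the line and treatment in the labels. The other 18 arrays hold HL60 and U937 given 10 mM metformin for 24 h, and the high OXPHOS lines KG1a and MOLM14 untreated or given the same treatment, with 3 arrays in each of the 8 groups. Messenger RNA was measured on Affymetrix arrays from 250 ng of total RNA, and respiration itself is not in these files. All cells were kept in exponential growth with penicillin and streptomycin.

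HL60 is a line of promyelocytic character, the stage of the neutrophil lineage at which the primary granules are filled with myeloperoxidase and serine proteases. It carries an amplified MYC gene. U937 is a line of monocytic character and carries the fusion gene PICALM-MLLT10. Granulocytes and monocytes share a progenitor and the master regulator PU.1 (SPI1), and IRF8 and GFI1 are known to steer that progenitor towards monocytes or granulocytes. Each type is represented here by 1 line, so a difference belongs to these lines, and what stems from lineage, fusion, amplification or culture history cannot be told apart. The labels do not say whether the 3 arrays of a group were grown separately. The p-values therefore cover the spread among arrays, which may be technical, and precision is limited by there being 3 arrays a group.

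Values are the authors' normalized signals on a log2 scale. A difference is the HL60 mean minus the U937 mean ± its standard error (SE), so that 1 is a doubling. Tests are limma's moderated tests on all 24 arrays, adjusted by Benjamini-Hochberg over 10641 genes with a threshold of 0.05, and "passed" means past that threshold. The median of all rows of the array, 4.02, served as a floor: a gene was tested where at least 1 group mean reached it, and a level under it was taken as not told from no signal. The arrays' interquartile ranges ran from 1.90 to 2.20 in HL60 and from 1.99 to 2.21 in U937, and the lowest in each line, array C, stood apart from the other two. Within a line, arrays correlated at 0.983 to 0.991. Without both arrays C and a metformin-treated U937 array that also stood apart, 5740 genes passed, and 5406 of them were among the 5948 that passed with all arrays, each with the same sign.

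In all, 5948 of 10641 genes passed, a background of 55.9%. Of these, 2967 were higher in HL60 (27.9% of the genes tested) and 2981 were lower (28%). The 3 HL60 arrays did not overlap the 3 U937 arrays in 57.2% of genes. A difference of at least 1 was found in 1334 genes (12.5%), 540 higher in HL60 (5.07%) and 794 lower (7.46%). At a difference of at least 3 the counts were 64 higher and 92 lower. HL60 held 83 genes at least 2 log2 units above the floor that lay below the floor in U937, and U937 held 97 such genes that lay below the floor in HL60. Of the 83, 16 were also below the floor in KG1a and MOLM14, against 22 of the 97.

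Myeloperoxidase (MPO), the haem enzyme of primary granules that makes hypochlorous acid, differed more than any other gene tested. Its levels were 12.58, 12.47 and 12.40 in HL60, against 3.33, 3.12 and 3.44 in U937, a difference of 9.19 ± 0.09 (adjusted p = 1.17e-28, limma, 3 of 3 arrays above all of U937). U937 lay below the floor on every array, as did the mean of KG1a (3.26), while MOLM14 averaged 8.93. The homeobox gene HOXD13, known from limb development, read 9.81, 9.70 and 9.73 in HL60, against 3.48, 3.15 and 3.42 in U937 (6.40 ± 0.12). KG1a and MOLM14 averaged 3.23 and 3.21, so HOXD13 stood above the floor in HL60 alone. CLC, which encodes galectin-10 of Charcot-Leyden crystals, an eosinophil and basophil product, read 9.76, 9.73 and 9.60 in HL60, against 3.23, 3.54 and 3.55 in U937 (6.25 ± 0.11). It too was under the floor in KG1a (3.42) and MOLM14 (3.25).

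The next genes in order were spread over unrelated functions. NRN1, a secreted neurite growth factor, was higher in HL60 by 5.37 ± 0.08 and the retrotransposon-derived imprinted gene PEG10 by 5.33 ± 0.10. The ciliary transport gene WDR35 was higher by 5.20 ± 0.10. All of these lay under the floor in U937, KG1a and MOLM14. The protease bleomycin hydrolase (BLMH) read 9.08, 9.06 and 9.02 in HL60, against 3.79, 3.55 and 3.75 in U937 (5.36 ± 0.07). Here U937 was the odd line out, since KG1a averaged 8.98 and MOLM14 8.04. The same held for the membrane-shaping gene REEP3 (4.56 ± 0.09), which averaged 8.29 in KG1a and 10.51 in MOLM14, and for the zinc finger gene ZNF562 (4.51 ± 0.11), at 7.98 and 7.52. Hepatocyte growth factor (HGF), the ligand of the MET receptor, was 4.80 ± 0.10 higher in HL60 and was shared with KG1a (9.53). The transcriptional cofactor DACH1 (5.05 ± 0.11) and the mRNA-binding protein IGF2BP1 (4.76 ± 0.08) were shared with MOLM14, at 10.09 and 7.20. The pseudokinase TRIB1, which marks C/EBPalpha for degradation, read 9.04, 8.92 and 8.91 in HL60, against 4.26, 4.24 and 4.50 in U937 (4.62 ± 0.09). The atypical cadherin FAT1 (4.62 ± 0.08) and the WNT co-receptor LRP6 (4.47 ± 0.10) completed the 15.

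CCL2, the chemokine that draws CCR2-bearing monocytes, differed most in the other direction. It read 2.88, 2.78 and 2.73 in HL60, against 10.59, 10.79 and 10.72 in U937 (-7.91 ± 0.16, adjusted p = 1.19e-22, limma, 3 of 3 arrays below all of U937). KG1a (2.85) and MOLM14 (3.79) lay below the floor. CD93, a C-type lectin receptor of monocytes, endothelium and leukaemic stem cells, read 3.87, 3.95 and 4.62 in HL60, against 10.25, 10.32 and 10.12 in U937 (-6.08 ± 0.14). Cytidine deaminase (CDA), which inactivates the leukaemia drug cytarabine, read 4.12, 4.07 and 4.36 in HL60, against 9.55, 9.63 and 9.56 in U937 (-5.40 ± 0.11), with 4.10 in KG1a and 4.47 in MOLM14. BCL2A1, an antiapoptotic BCL2 relative, read 4.11, 4.35 and 4.43 in HL60, against 9.22, 9.37 and 9.42 in U937 (-5.04 ± 0.11). Carboxylesterase 1 (CES1), a hydrolase of monocytes and liver, was lower in HL60 (-4.76 ± 0.10) and was shared with MOLM14 (8.91).

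COX8C encodes a testis form of a cytochrome c oxidase subunit and lay under the floor in 3 of the 4 lines. It read 3.24, 3.22 and 3.25 in HL60, against 8.31, 8.26 and 8.20 in U937 (-5.02 ± 0.09). The mitochondrial thiolase ACAA2, the last step of beta-oxidation, was at 3.06, 3.07 and 3.31 in HL60, against 8.51, 8.54 and 8.52 in U937 (-5.38 ± 0.10). HL60 was the odd line out for ACAA2, with 7.78 in KG1a and 7.68 in MOLM14. The adhesion receptor ADGRA2 (-5.25 ± 0.08), LIAT1 (-5.04 ± 0.11), the septin SEPTIN3 (-4.68 ± 0.09), the Rab regulator DENND2D (-4.62 ± 0.09) and the mast cell and monocyte membrane protein MCEMP1 (-4.50 ± 0.09) were lower in HL60, as were the long noncoding RNAs MROCKI (-4.70 ± 0.13) and LINC00926 (-4.60 ± 0.10). The metallothionein MT1G, a zinc-binding protein, was lower (-6.26 ± 0.14).

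**Figure D1:**
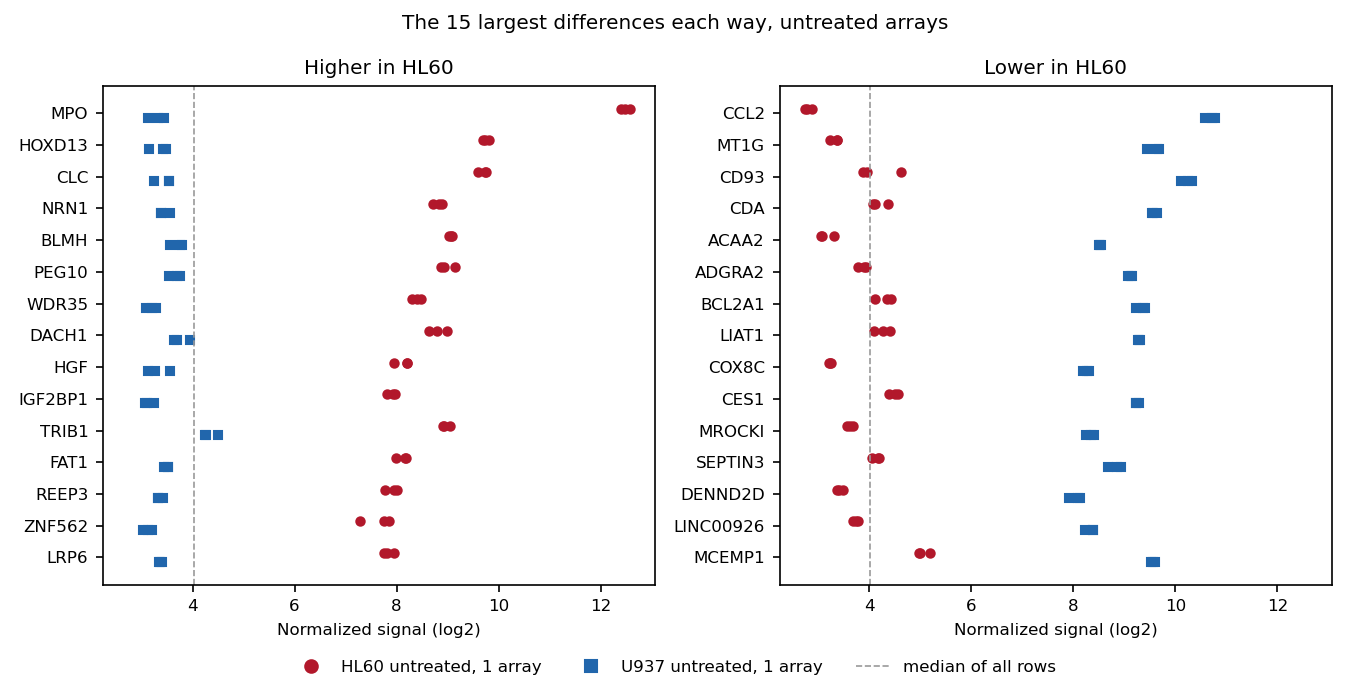
Levels of the 15 genes with the largest differences in each direction, on a log2 scale along the x axis, 1 gene per row. Each red circle is 1 untreated HL60 array and each blue square 1 untreated U937 array, and the dashed line is the floor of 4.02. MPO at 12.40 to 12.58 in HL60 stands farthest right, and CCL2, at 2.73 to 2.88 in HL60, lies farthest from its U937 values among the genes lower in HL60.

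The primary granule genes did not follow MPO. Of 9 tested, 2 were higher in HL60 and 6 lower, with a median difference of -0.44 beside 0.02 over all genes tested. That is 88.9% passed, beside 55.9% over all genes. The protease gene PRTN3 (proteinase 3) read 11.31, 11.34 and 11.45 in HL60, against 11.77, 11.86 and 11.83 in U937 (-0.46 ± 0.07). Cathepsin G (CTSG) read 9.91, 9.86 and 9.65 in HL60, against 10.46, 10.44 and 10.40 in U937 (-0.63 ± 0.08). Azurocidin (AZU1), an antimicrobial relative of these proteases without enzymatic activity, read 7.20, 6.93 and 6.77 in HL60, against 8.73, 8.74 and 8.64 in U937 (-1.73 ± 0.10). Both lines thus held these transcripts well above the floor, and U937 held the higher level. KG1a averaged 3.30, 3.59 and 4.02 for PRTN3, CTSG and AZU1. Lysozyme (LYZ), which cleaves bacterial cell walls, was lower in HL60 (-2.17 ± 0.11), and the granule proteoglycan SRGN did not pass (0.02 ± 0.08, adjusted p = 0.864, limma, arrays overlapping). CFD, the complement protease factor D, was higher in HL60 (0.60 ± 0.12).

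Eosinophil peroxidase (EPX), the eosinophil relative of MPO, read 6.81, 6.65 and 6.20 in HL60, against 3.04, 3.05 and 3.07 in U937 (3.50 ± 0.15), and with CLC and the carboxypeptidase CPA3 made 3 of 5 tested genes of eosinophil and basophil granules higher. CPA3 passed by 0.32 ± 0.12 with both means under the floor, at 3.75, 3.76 and 4.09 in HL60, against 3.47, 3.37 and 3.80 in U937. The higher count was 2 without HL60 array C, U937 array A or U937 array B. The remaining pair, the mast cell tryptases TPSAB1 (-1.67 ± 0.21) and TPSB2 (-1.39 ± 0.18), was lower. TPSAB1 and TPSB2 are near-identical copies whose signals may not be separable. Among later neutrophil granule genes, 0 of 6 were higher by limma and 3 lower, and 1 was higher without HL60 array A, U937 array B or U937 array C. The lower genes were the chitinase-like CHI3L1 (-2.63 ± 0.12), CEACAM6 and the collagenase MMP8. Of the 6 tested genes 50% passed, beside 55.9% over all genes tested. The lactoferrin gene LTF was 1 of 5 named genes of this list that lay under the floor in all 8 groups and were not tested. With no filter, 0 of 11 were higher and 4 lower, and the median was 0.005 in place of -0.42.

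The promoters of these granule genes are shown because the protease genes were shared by both lines while CLC was not. Each runs from 250 bases before to 50 after the RefSeq start on GRCh38.p14, 5′ to 3′ on the gene's strand. Capitals mark the letters GAGGAA of an ETS motif, TGTGGT of a RUNX motif and GCAAT of a C/EBP half-site, on either strand. CLC lies at chr19:39737980-39738279 (minus strand), PRTN3 at chr19:840749-841048 (plus), AZU1 at chr19:827587-827886 (plus) and CTSG at chr14:24576201-24576500 (minus). IRF8 at chr16:85902580-85902879 (plus) is added for the regulator described next.
CLC: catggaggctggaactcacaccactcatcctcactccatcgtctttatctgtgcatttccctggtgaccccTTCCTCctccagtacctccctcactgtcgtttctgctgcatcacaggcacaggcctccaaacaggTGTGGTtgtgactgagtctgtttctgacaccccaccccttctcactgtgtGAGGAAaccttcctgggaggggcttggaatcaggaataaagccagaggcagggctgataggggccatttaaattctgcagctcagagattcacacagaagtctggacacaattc
PRTN3: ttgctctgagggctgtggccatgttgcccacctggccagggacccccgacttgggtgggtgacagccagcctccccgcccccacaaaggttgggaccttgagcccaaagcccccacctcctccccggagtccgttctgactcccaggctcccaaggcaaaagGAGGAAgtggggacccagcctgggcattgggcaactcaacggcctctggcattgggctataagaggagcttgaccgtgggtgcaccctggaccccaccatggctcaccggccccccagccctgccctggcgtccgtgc
AZU1: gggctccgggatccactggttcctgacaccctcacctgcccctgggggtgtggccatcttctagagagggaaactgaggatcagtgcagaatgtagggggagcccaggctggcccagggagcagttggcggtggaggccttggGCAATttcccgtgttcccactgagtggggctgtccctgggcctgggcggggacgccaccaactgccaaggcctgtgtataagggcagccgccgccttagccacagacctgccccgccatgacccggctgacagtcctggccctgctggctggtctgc
CTSG: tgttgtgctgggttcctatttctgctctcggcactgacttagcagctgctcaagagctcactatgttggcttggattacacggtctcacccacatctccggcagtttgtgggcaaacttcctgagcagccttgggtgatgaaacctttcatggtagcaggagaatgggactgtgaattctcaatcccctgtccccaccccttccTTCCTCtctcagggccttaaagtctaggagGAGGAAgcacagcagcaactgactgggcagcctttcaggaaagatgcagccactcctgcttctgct
IRF8: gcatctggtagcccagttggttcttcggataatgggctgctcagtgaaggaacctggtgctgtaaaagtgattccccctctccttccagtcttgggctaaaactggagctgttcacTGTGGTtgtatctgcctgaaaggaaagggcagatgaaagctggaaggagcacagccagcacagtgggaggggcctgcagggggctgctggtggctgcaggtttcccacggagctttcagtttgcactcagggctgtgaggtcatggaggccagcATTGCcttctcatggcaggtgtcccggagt

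The ETS letters occurred 2 times in CLC, 1 time in PRTN3 and 2 times in CTSG, the RUNX letters 1 time each in CLC and IRF8, and the C/EBP half-site 1 time each in AZU1 and IRF8. Of 35116 RefSeq promoters of the same length, 27.9% held the ETS letters, 13.1% the RUNX letters and 24.5% the C/EBP half-site, so a match is common. The table gives another start for IRF8, and the window there held 0 matches to the RUNX letters and 1 to the C/EBP half-site. MPO and EPX had no entry in the promoter table used here and are named only.

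Monocyte genes were lower in HL60. Of 31 listed genes 14 were tested, and 1 was higher and 9 lower, with a median of -1.05. That is 71.4% passed, beside 55.9% over all genes tested. The median of the list was -0.43 over the 18 named genes with no filter, and -1.57 over the 12 genes that reached the floor in the groups compared. MNDA, a nuclear protein of myelomonocytic cells, read 6.54, 6.53 and 6.53 in HL60, against 10.07, 10.06 and 9.86 in U937 (-3.46 ± 0.10). The inhibitory receptor CD300LF (-3.97 ± 0.12), the signalling adaptor TYROBP (-2.82 ± 0.11), the scavenger receptor CD36 (-2.79 ± 0.09), the lysosomal glycoprotein CD68 (-2.27 ± 0.09) and ficolin-1 or FCN1, a lectin (-2.02 ± 0.11), were lower. The costimulatory ligand CD86 was the 1 higher gene (0.70 ± 0.13), and CSF1R, the receptor for the macrophage growth factor, did not pass (-0.25 ± 0.11, adjusted p = 0.0515, limma, lower on 3 of 3 arrays). CD14, CD163, VCAN and S100A12, markers of mature monocytes and macrophages, were below the floor in all groups, so U937 is monocytic here by part of the list. The mean over the 14 genes was 4.45 to 4.59 on the HL60 arrays, against 5.92 to 5.95 on the U937 arrays. MOLM14 averaged 10.01 for TYROBP and 9.73 for CD68, above U937.

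**Figure D2:**
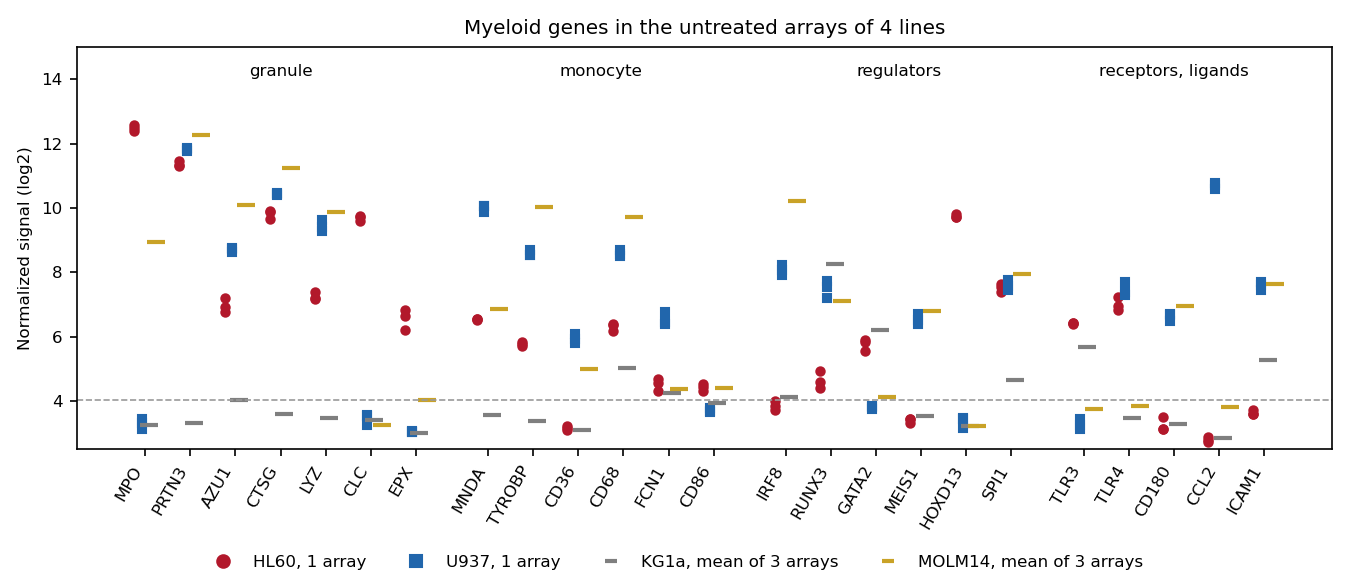
Levels of granule, monocyte, regulator and receptor or ligand genes on a log2 scale (y axis) in untreated cells. Red circles are HL60 arrays, blue squares U937 arrays, and grey and yellow bars the means of 3 KG1a and 3 MOLM14 arrays, with the floor of 4.02 dashed. MPO stands at 12.40 to 12.58 in HL60 and below 4.02 in U937, while PRTN3, AZU1, CTSG and LYZ lie slightly to clearly higher in U937.

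The regulators of these lineages differed in both directions. Of 41 transcription factors tested, 9 were higher in HL60 and 18 lower (median -0.18), so that 65.9% passed beside 55.9% over all genes. IRF8, a factor needed for monocyte and dendritic cell development, read 3.73, 3.98 and 3.85 in HL60, against 8.21, 8.07 and 7.92 in U937 (-4.21 ± 0.10), and stood at 10.22 in MOLM14. RUNX3 (-2.85 ± 0.13), the MITF relative TFEC (-2.17 ± 0.09) and the granulocyte-side repressor GFI1 (-1.35 ± 0.08) were lower. GATA2, which acts in progenitors, mast cells and basophils, read 5.56, 5.90 and 5.83 in HL60, against 3.85, 3.73 and 3.79 in U937 (1.97 ± 0.10). MYC, amplified in HL60, read 9.78, 9.77 and 9.60 in HL60, against 9.13, 9.17 and 9.02 in U937, a modest 0.61 ± 0.08. SPI1 (-0.07 ± 0.11, adjusted p = 0.637) and MYB (-0.18 ± 0.10, adjusted p = 0.148), which maintain myeloid identity and progenitor growth, did not pass limma's test. SPI1 arrays overlapped, at 7.37 to 7.65 in HL60 and 7.43 to 7.75 in U937.

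The HOX genes and their partners, HOXD13 among them, counted 4 higher and 7 lower of 16 tested (median -0.13). That is 68.75% passed, beside 55.9% over all genes tested. Another 12 named members lay under the floor in all groups. With no filter, 5 of 28 were higher and 7 lower, and the median was 0.07, so its direction depended on the filter. MEIS1, the HOX cofactor of leukaemia, read 3.43, 3.30 and 3.45 in HL60, against 6.50, 6.70 and 6.40 in U937 (-3.14 ± 0.10), and MOLM14, at 6.80, was near U937. HOXC10 (-2.05 ± 0.12) and HOXC4 (-1.10 ± 0.08) were lower, and MEIS2 (1.24) was higher in HL60. PICALM, the 5′ partner of the U937 fusion, was 0.41 ± 0.09 higher in HL60, and was the 1 gene tested of its list. Stem and progenitor markers counted 3 higher and 3 lower of 11, so 54.5% passed, near the share over all genes. CD38, an ectoenzyme lost on stem cells, was lower (-2.87 ± 0.15), as were the ETS factor ERG (-1.79 ± 0.10) and KIT. The higher genes were MSI2, THY1 and FLT3. With 1 array left out, their differences ran from 0.56 to 0.68, 0.33 to 0.52 and 0.22 to 0.39. The means of 5 of the 11 genes lay under the floor in both lines. CD34 lay under the floor in both lines (0.08 ± 0.13, adjusted p = 0.656, limma, arrays overlapping), against 11.24 in KG1a.

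Cytokine and chemokine genes were lower in HL60 in 11 of 19 tested and higher in 1, with a median of -0.71. With no filter the median over 25 genes was -0.22. Without HL60 array C, U937 array A or U937 array C 2 genes were higher. After CCL2 came IL32, an inflammatory cytokine, at 3.59, 3.63 and 3.57 in HL60, against 7.26, 7.41 and 7.18 in U937 (-3.68 ± 0.12). IL18, processed by the inflammasome, was lower (-1.95 ± 0.13), as was TNF (-1.22 ± 0.10). The exception was the macrophage migration inhibitory factor MIF (0.63). Of 18 receptors, 5 were higher and 9 lower. That is 77.8% passed, and 63.2% of the cytokine and chemokine list, beside 55.9% over all genes tested. IL31RA (-2.55 ± 0.11), IL4R (-2.06 ± 0.11), the granulocyte growth factor receptor CSF3R (-1.75 ± 0.10), IL6R (-1.73 ± 0.08) and the homing receptor CXCR4 (-1.52 ± 0.09) were lower, and the lymph node homing receptor CCR7 was higher (1.47 ± 0.14).

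Innate sensors went both ways, as did all genes tested, of which 27.9% were higher and 28% lower. Of 18 tested genes of Toll-like receptors and their signalling, 4 were higher and 9 lower. That is 72.2% passed, beside 55.9% over all genes tested. TLR3, the endosomal receptor for double-stranded RNA, read 6.40, 6.41 and 6.41 in HL60, against 3.25, 3.45 and 3.13 in U937 (3.13 ± 0.10). CD180, a Toll-like relative that tunes lipopolysaccharide responses, read 3.14, 3.13 and 3.49 in HL60, against 6.71, 6.66 and 6.48 in U937 (-3.36 ± 0.12). The kinase-family adaptor IRAK2 was lower (-2.40 ± 0.09). The lipopolysaccharide receptor TLR4 was at 6.84 to 7.23 in HL60, against 7.28 to 7.69 in U937 (-0.45 ± 0.12). Of 26 interferon-inducible genes 8 were higher and 5 lower, so 50% passed, below the share over all genes. The antiviral GTPase MX2 was at 3.37 to 3.56 in HL60, against 7.42 to 7.68 in U937 (-4.08 ± 0.10), while SAMD9L (2.41 ± 0.09) and IFITM1 (2.00 ± 0.15) were higher in HL60. The peptide-trimming aminopeptidase ERAP2 was higher by 2.71 ± 0.10 and ERAP1 was lower (-0.25 ± 0.11), and these made 1 higher and 1 lower of 4 tested genes of MHC class I presentation. The call of ERAP1 was lost on leaving out any 1 array other than U937 array C. The 13 listed genes of MHC class II are not analysed here.

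Of 15 leukaemia surface antigens, 1 was higher and 7 lower (median -0.21). That is 53.3% passed, beside 55.9% over all genes tested. Without HL60 array A 2 of the antigens were higher. The lower antigens included the macrophage checkpoint receptor SIRPA (-2.21 ± 0.11), CD70 (-2.54 ± 0.10) and CD99 (-1.47 ± 0.07). Of 11 adhesion genes, 3 were higher and 5 lower, with a median of 0.05, so the counts and the median differ in direction. Of this list 72.7% passed. ICAM1, the integrin ligand, read 3.58, 3.58 and 3.71 in HL60, against 7.70, 7.59 and 7.45 in U937 (-3.96 ± 0.10). PECAM1 was lower (-2.63 ± 0.11), and the hyaluronan receptor CD44 (0.99 ± 0.13) and ICAM3 (0.93 ± 0.10) were higher. Among 18 genes of lipid mediators and inflammatory receptors, 3 were higher and 6 lower (median -0.10), a share near the background of 27.9% higher and 28% lower. Cyclooxygenase 1 or PTGS1 (-3.05 ± 0.09), the platelet-activating factor receptor PTAFR (-2.91 ± 0.16), the formyl peptide receptor FPR2 (-2.88 ± 0.11) and thromboxane synthase or TBXAS1 (-1.32 ± 0.12) were lower. Of the NADPH oxidase list 2 genes were tested, with the proton channel HVCN1 higher (1.77 ± 0.09) and the chaperone CYBC1 lower (-0.59 ± 0.10).

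Of kinase and survival genes, 70.4% of the RAS, PI3K and STAT list and 63.2% of the BCL2 list passed. Over all genes tested 55.9% did. Of 27 genes of RAS, PI3K and STAT signalling 4 were higher and 15 lower (median -0.34). The kinase PIM1, a STAT5 target, read 4.77, 4.93 and 5.08 in HL60, against 7.68, 7.65 and 7.63 in U937 (-2.73 ± 0.10). The SRC-family kinases FGR (-1.78 ± 0.09) and LYN (-1.66 ± 0.07) and the phosphatase DUSP4 (-1.70 ± 0.09) were lower, and the ETS factor ETV4 was higher (1.08 ± 0.10). In the BCL2 family, 7 of 19 genes were higher and 5 lower. BCL2 read 9.53, 9.36 and 9.33 in HL60, against 7.25, 7.50 and 7.13 in U937 (2.12 ± 0.09), and MCL1 was higher by 0.35 ± 0.09. BCL2L1 (-1.13 ± 0.11) was lower, as BCL2A1 was. The BH3-only gene PMAIP1 (NOXA) was higher in HL60 (1.67 ± 0.12).

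Proliferation genes went both ways, as did all genes tested, of which 27.9% were higher and 28% lower. Of the S-phase list 59.3% passed and of the mitosis list 71.4%, beside 55.9% over all genes tested. Of 27 S-phase genes 9 were higher and 7 lower (median 0.08), with the helicase subunit MCM5 higher (1.06 ± 0.08) and GINS4 lower (-1.20 ± 0.09). Of 35 mitosis genes 11 were higher and 14 lower (median -0.07), with survivin (BIRC5) higher (1.05 ± 0.11) and KIF23 lower (-0.79 ± 0.09). A list of cell cycle inhibitors and p53 pathway genes also held the D-type cyclins and their kinases. Of its 19 tested genes, 5 were higher, among them the cyclin CCND2 (1.11 ± 0.08) and TP53I3 (1.10 ± 0.14), and 5 lower, among them RRM2B (-1.21 ± 0.12). That is 52.6% passed, near the share over all genes. CDKN2A did not pass (-0.21 ± 0.12, adjusted p = 0.156, limma, lower on 3 of 3 arrays).

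**Figure D3:**
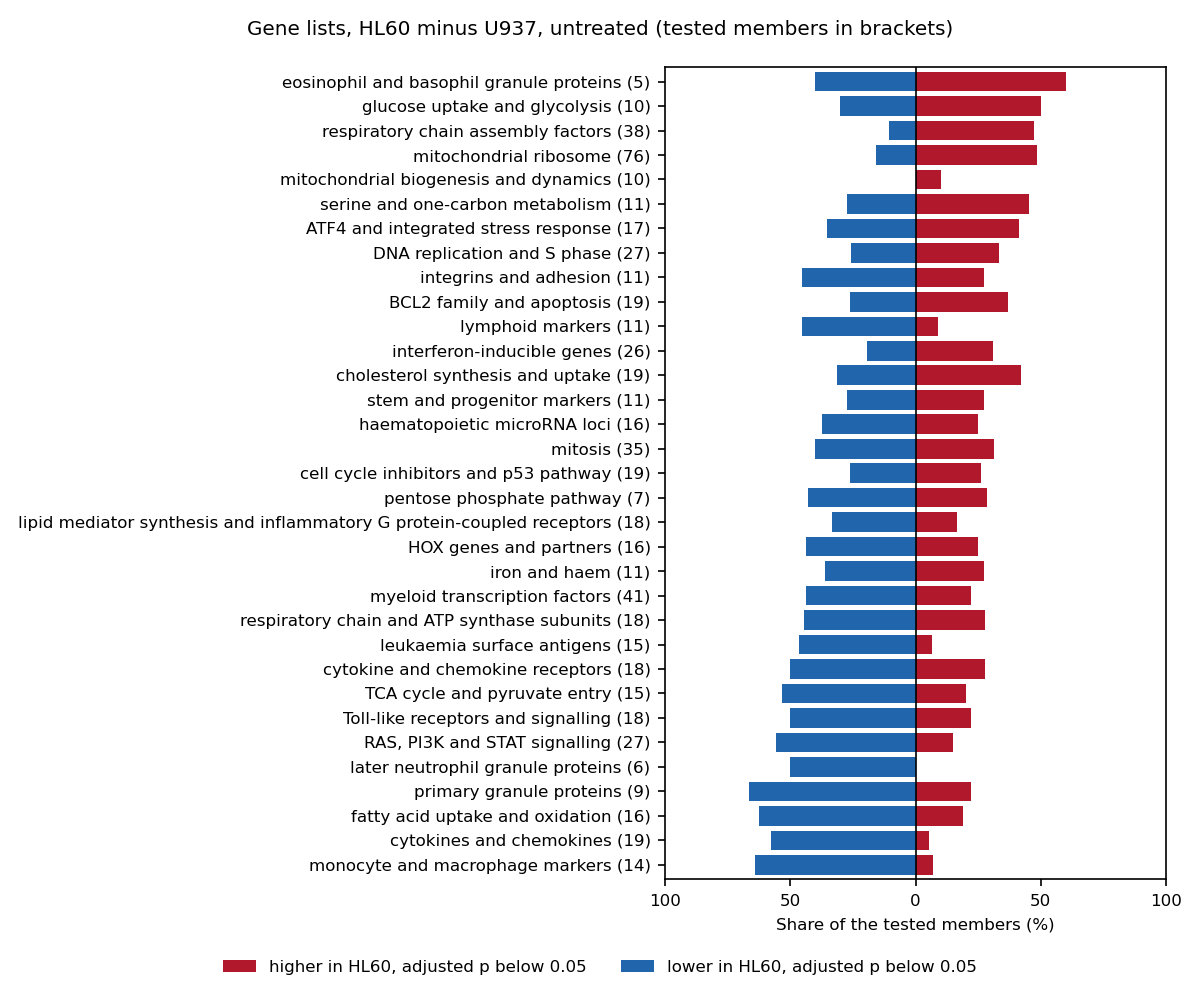
Share of the tested members of each gene list that were higher in HL60 (red, to the right) or lower in HL60 (blue, to the left) at an adjusted p below 0.05, for lists with at least 5 tested members, ordered by median difference. The background over all genes was 27.9% higher and 28% lower. Monocyte and macrophage markers, with 9 of 14 lower, and cytokines, with 11 of 19 lower, lie at the bottom.

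Since both lines carry the low OXPHOS label, genes of mitochondria and fuel use were compared within it. Over all genes tested, 27.9% were higher and 28% lower. Assembly factors of the respiratory chain leaned to HL60, with 18 of 38 higher and 4 lower (median 0.24). The higher count was 13 without HL60 array A and 14 with only the arrays compared. The mean over the list was 6.61 to 6.82 on the HL60 arrays and overlapped the 6.45 to 6.63 on the U937 arrays. The ATP synthase assembly factor ATPAF1 read 7.30, 7.27 and 7.02 in HL60, against 5.95, 5.80 and 5.68 in U937 (1.39 ± 0.09). UQCC1 (0.78 ± 0.11) and LYRM7 (0.74 ± 0.11) of complex III and COX18 (0.58 ± 0.09) of complex IV were higher. Mitochondrial ribosome genes counted 37 higher and 12 lower of 76 (median 0.24), with MRPS21 (1.27 ± 0.07), MRPL1 (0.88 ± 0.10) and MRPL45 (0.84 ± 0.09) higher and MRPL15 lower (-0.94 ± 0.11). Without U937 array A the lower count was 7. Of 80 listed structural subunits of the chain only 18 were tested, against 38 of 49 assembly factors and 76 of 82 mitochondrial ribosome genes. The 18 subunits showed no such lean, with 5 higher and 8 lower (median -0.20). COX7C was higher (0.66 ± 0.11), and UQCRC2 (-0.55 ± 0.08), COX4I1 (-0.52 ± 0.08) and COX6C (-0.67 ± 0.11) were lower. Complex I and II subunits are not analysed here. Of 10 genes of mitochondrial biogenesis and dynamics 1, the fission receptor MFF (0.45 ± 0.10), was higher and 0 were lower by limma. Without HL60 array C, 5 were higher.

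The TCA and fatty acid lists had negative medians and the glycolysis list a positive one. Of the TCA list 73.3% passed, of the fatty acid list 81.25% and of the glycolysis list 80%, beside 55.9% over all genes tested. Of 15 genes of the TCA cycle and pyruvate entry 3 were higher and 8 lower (median -0.26), led by pyruvate carboxylase (PC, -0.97 ± 0.11), the pyruvate dehydrogenase phosphatase PDP1 (-0.86 ± 0.09), IDH3A (-0.73 ± 0.08) and PDHA1 (-0.59 ± 0.09), while citrate synthase (CS) was higher (0.42 ± 0.11). Of 16 genes of fatty acid uptake and oxidation 3 were higher and 10 lower (median -0.61). Besides ACAA2 and CD36 these were led by the nuclear receptor PPARD (-1.66 ± 0.10) and the acyl-CoA synthetase ACSL4 (-0.89 ± 0.08). Without HL60 array C the higher count was 5. Of 28 listed genes of glucose uptake and glycolysis 10 were tested, and 5 were higher and 3 lower (median 0.25). TXNIP, given below as a restraint on glucose uptake, is 1 of the 5. Hexokinase 1 (HK1) read 4.32, 4.16 and 4.39 in HL60, against 6.82, 6.67 and 6.83 in U937 (-2.48 ± 0.08), while hexokinase 2 (HK2) was 0.41 ± 0.10 higher. LDHA (0.53 ± 0.12) and LDHB (0.48 ± 0.08) were higher and GPI was lower (-0.71 ± 0.08). TXNIP, which restrains glucose uptake, read 7.67, 7.38 and 7.50 in HL60, against 5.32, 5.52 and 5.34 in U937 (2.12 ± 0.12). In the pentose phosphate pathway 2 of 7 genes were higher and 3 lower, and 1 was higher without HL60 array A or U937 array C.

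The size of these shifts can be set beside the class label. The difference of the KG1a and MOLM14 mean minus the HL60 and U937 mean had medians of -0.11 for assembly factors, -0.17 for the mitochondrial ribosome, -0.13 for subunits, -0.19 for the TCA list, -0.25 for glycolysis and -0.16 for fatty acid oxidation. That contrast uses the same HL60 and U937 arrays, so the values are given side by side only. Over all genes, the median size of the difference was 0.31 for HL60 minus U937 and 0.26 for the class contrast, in which 6583 genes passed (61.9%). The class contrast averages lines on each side and a pair does not. Their sizes and their shares of genes that passed are therefore not on a like scale. The other untreated pair, KG1a minus MOLM14, shares no array with HL60 and U937. Its median size was 0.37 and 6497 genes passed (61.1%), with 18.7% at a difference of at least 1 against 12.5% for HL60 minus U937. In 45.5% of genes HL60 and U937 lay farther apart than KG1a and MOLM14.

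**Figure D4:**
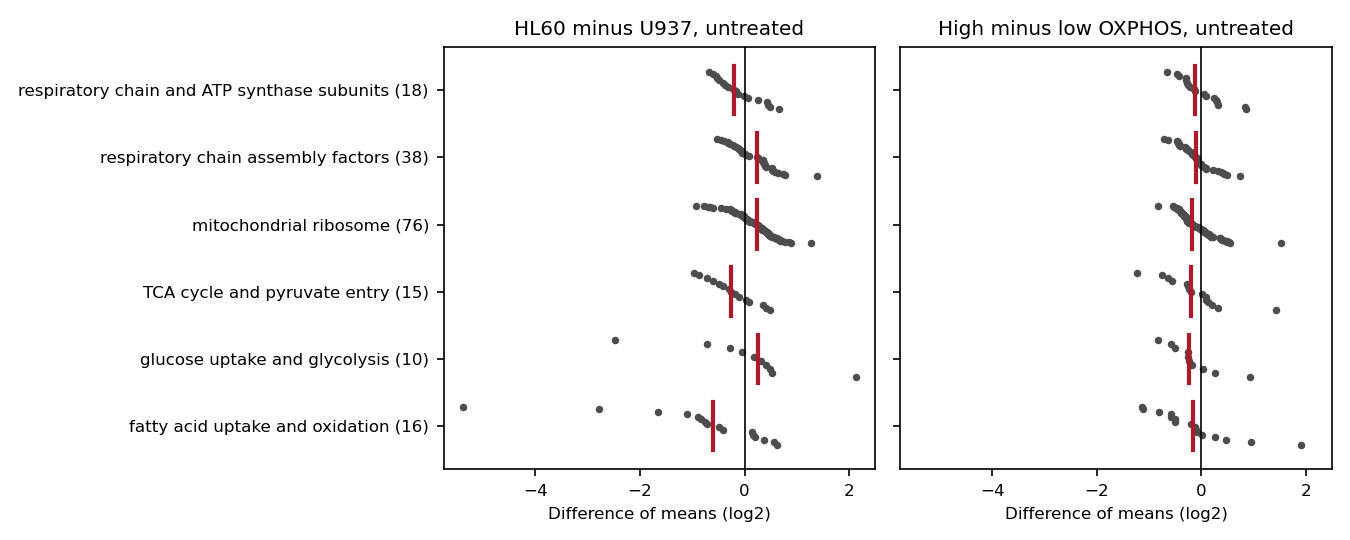
Differences of group means on a log2 scale (x axis) for each tested gene (dots) of 6 metabolic lists, with the number of genes in brackets and the list's median as a red line. The left panel shows HL60 minus U937 and the right panel the high OXPHOS lines minus the low OXPHOS lines, all untreated. Medians in the left panel run from -0.61 for fatty acid oxidation to 0.25 for glycolysis, and all 6 in the right panel lie between -0.25 and -0.11. The right panel averages lines on each side and the left does not, so sizes are not on a like scale.

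Biosynthesis and stress genes were mixed. Of 19 cholesterol genes 8 were higher and 6 lower (median 0.02), and those named here are all among the higher. That is 73.7% passed, beside 55.9% over all genes tested. HMGCS1, which commits acetyl-CoA to sterols, read 9.08, 8.86 and 8.64 in HL60, against 6.66, 6.73 and 6.64 in U937 (2.18 ± 0.10). The regulator SREBF2 (1.31 ± 0.08) and MSMO1 (1.43 ± 0.11) were higher too. HSD17B7 was higher by 2.56 ± 0.13, but its pseudogene HSD17B7P2 differed by 3.18 ± 0.12 and their signals may not be separable. Without HL60 array C 3 cholesterol genes were lower in place of 6. Serine and one-carbon genes counted 5 higher and 3 lower of 11, with PSAT1 (0.90 ± 0.07), MTHFD2L (1.33 ± 0.11) and thymidylate synthase (TYMS, 0.86 ± 0.07) higher and SHMT1 lower (-0.996 ± 0.10). Of 17 genes of the integrated stress response 7 were higher and 6 lower (median 0.08), so 76.5% passed. Asparagine synthetase (ASNS) read 8.10, 8.09 and 8.003 in HL60, against 5.72, 5.66 and 5.73 in U937 (2.36 ± 0.08). The factor ATF4 itself was higher by 1.08 ± 0.10. Among the 6 lower genes were TRIB3 (-0.62 ± 0.09) and CTH (-0.40 ± 0.13). Of 11 iron and haem genes 3 were higher, including TFR2 (0.57 ± 0.11) and NCOA4 (0.50 ± 0.09), and 4 lower, including HMOX1 (-0.52 ± 0.10).

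Of 16 microRNA loci tested, the transcripts of 4 were higher in HL60 and those of 6 lower. That is 62.5% passed, beside 55.9% over all genes tested. The array reads the locus or its precursor, and mature microRNA was not measured. MIR181B1, whose product is known from haematopoietic differentiation, read 8.53, 8.30 and 8.11 in HL60, against 4.31, 3.83 and 3.89 in U937 (4.30 ± 0.13). MIR181B2, which encodes the same mature sequence, was higher by 1.04 ± 0.15, and MIR21 by 1.16 ± 0.17. MIR196B, a locus of the HOXA cluster, read 3.32, 3.67 and 3.51 in HL60, against 7.57, 7.58 and 7.44 in U937 (-4.03 ± 0.10), with 9.70 in KG1a and 7.79 in MOLM14. MIR155 (-1.66 ± 0.11) and the myeloid MIR223 (-1.54 ± 0.12) were lower, as were MIR221 (-1.04 ± 0.15), MIR222 (-0.96 ± 0.20) and MIR146A (-0.70 ± 0.14). The host gene MIR17HG was the remaining higher member.

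The mature sequences of these loci from RefSeq (GRCh38.p14) are shown with the seed, bases 2 to 8, in capitals, to set which loci share a seed. The arm shown is the better known one.
hsa-miR-181b-5p: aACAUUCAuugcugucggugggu
hsa-miR-21-5p: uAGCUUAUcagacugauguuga
hsa-miR-196b-5p: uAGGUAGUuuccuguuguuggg
hsa-miR-155-5p: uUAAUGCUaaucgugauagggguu
hsa-miR-223-3p: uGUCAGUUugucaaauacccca
hsa-miR-221-3p: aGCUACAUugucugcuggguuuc
hsa-miR-222-3p: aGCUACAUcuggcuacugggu
hsa-miR-146a-5p: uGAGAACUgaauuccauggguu

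The products of MIR221 and MIR222 share 1 seed, and both loci were lower in HL60. MIR181B1 at chr1:198858925-198858947 (minus strand) and MIR181B2 at chr9:124693725-124693747 (plus strand) give 1 mature sequence, and both were higher. The other 5 seeds each belong to 1 of the loci shown.

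Markers of other cell types were low in both lines, with exceptions. Of 11 lymphoid markers 1 was higher in HL60 and 5 lower. That is 54.5% passed, beside 55.9% over all genes tested. The mean over the 11 markers was 4.16 to 4.34 on the HL60 arrays, against 4.79 to 4.81 on the U937 arrays. NKG7, a granule protein of cytotoxic lymphocytes, read 5.94, 5.70 and 5.70 in HL60, against 9.69, 9.87 and 9.64 in U937 (-3.95 ± 0.11), and EBF1 (-1.22 ± 0.13) and CD22 (-1.21 ± 0.12) were lower. Without HL60 array A 3 lymphoid genes were lower. Without HL60 array B, HL60 array C or U937 array C 0 were higher by limma. Of 3 erythroid genes 0 were higher and 1, KLF1, was lower (-0.72 ± 0.11), and 1 was higher without HL60 array A. Neither of 2 megakaryocyte genes passed by limma. Of 4 non-haematopoietic genes KRT8 was higher (0.51 ± 0.16), a call lost without HL60 array C, while EPCAM stood at the floor in both lines.

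The HL60 and U937 arrays of the metformin-treated cells give the same line comparison with group means from 6 other arrays. Both comparisons take their standard error from the same fit over all 24 arrays. There, 6277 genes passed (59%). Of the genes called without metformin, 5065 also passed with metformin and had the same sign, 85.2% of the untreated calls and 80.7% of the metformin calls, and 27 passed with opposite signs. Of the 1334 genes with a difference of at least 1, 1333 kept their sign. Across the 10641 genes the differences correlated at a Pearson r of 0.95 and a Spearman rho of 0.89, given as a description, since genes are not replicates. MPO differed by 9.34 ± 0.09 and CCL2 by -6.52 ± 0.16 with metformin.

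The line difference itself changed with metformin in 497 genes (4.67%, limma's interaction test), 352 towards HL60 (3.31%) and 145 towards U937 (1.36%). After quantile normalization the split was 251 and 184, and with centred arrays 359 and 87. The integrated stress response held 12 of its 17 genes among the 497. STC2, a secreted stress protein, read 8.50, 8.37 and 8.54 in metformin-treated HL60, against 3.82, 3.91 and 3.83 in metformin-treated U937, and the difference grew by 2.86 ± 0.16 over the untreated one of 1.76 ± 0.11 (adjusted p = 4.85e-11). U937 thus stayed below the floor with and without the drug. TXNIP went the other way, with a difference of 0.36 ± 0.12 with metformin against 2.12 ± 0.12 without. CLC (4.64 ± 0.11 against 6.25 ± 0.11) and EPX (2.30 ± 0.15 against 3.50 ± 0.15) narrowed. The fatty acid receptor GPR84 turned over, at 1.32 ± 0.13 with metformin against -0.92 ± 0.13 without, as did JUN (0.83 ± 0.14 against -0.69 ± 0.14), the cysteine synthesis gene CTH (0.99 ± 0.13 against -0.40 ± 0.13) and TRIB3 (0.33 ± 0.09 against -0.62 ± 0.09).

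**Figure D5:**
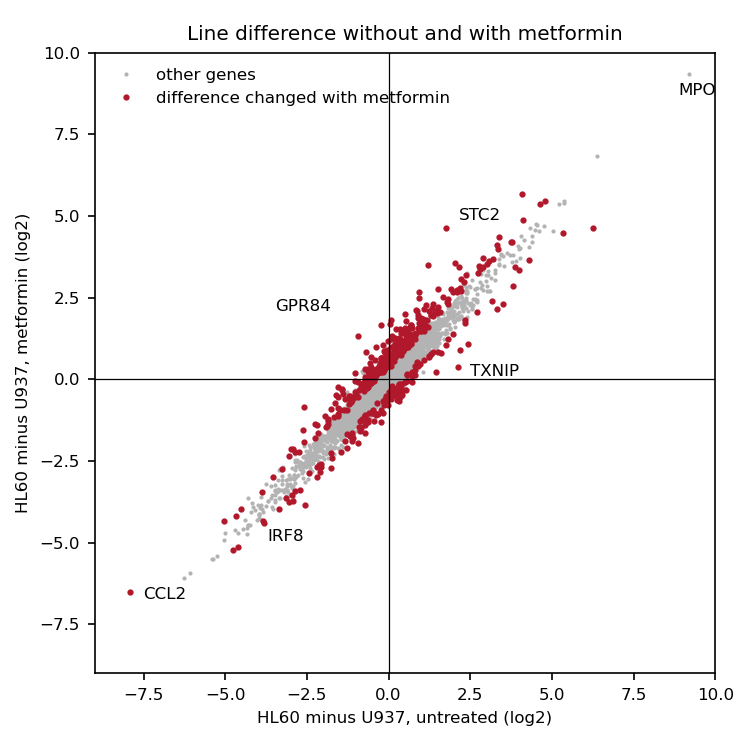
Difference of HL60 minus U937 on a log2 scale in untreated cells (x axis) and in metformin-treated cells (y axis), 1 dot per gene. Red dots are the genes whose difference changed with metformin at an adjusted p below 0.05. MPO lies at 9.19 and 9.34 and CCL2 at -7.91 and -6.52, while STC2 (1.76 and 4.62) and GPR84 (-0.92 and 1.32) stand off the diagonal.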

How the data were processed

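Values were deposited by the authors as normalized log2 signals, 1 per transcript row and array. Partek is named per the submitters' processing notes, without a version. The labels and file headers give neither the summarization method nor the log base. A log2 scale was taken from the range of the values, 1.88 to 14.2. Of 53617 rows, 16098 named 1 gene and the rest are not used here. A gene with several rows (779 of 14884) was represented by the row with the highest mean over all 24 arrays. Genes with at least 1 group mean at or above 4.02 were tested, 10641 in all. A model with 8 group means and 16 residual degrees of freedom was fitted with limma 3.58.1 in R 4.3.3 and tested on simulated data. Sequences come from RefSeq tables of GRCh38.p14.

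Genes were named by rule: the 15 largest differences in each direction among genes that passed and whose arrays did not overlap, the 4 smallest adjusted p-values of each list, and a fixed set. Members and lists were chosen with earlier results of these data known. Other list members, the metallothioneins, siglecs, HSD17B7P2 and the genes with opposite signs were picked after their values were seen. Genes of the Y chromosome and XIST, 6 of the 10641, were tested and counted but are not named. Arrays with the same letter in HL60 and U937 deviated together (correlations of 0.13, 0.14 and 0.37), although HL60 array A correlated more with U937 array B (0.28) than with U937 array A. The largest, 0.37, joined both arrays C, which stood apart, so these correlations do not settle whether letters mark pairs. Every same-letter correlation exceeded 0.1, and letters were treated as pairs in an alternative with a replicate block. The labels do not say what a letter marks. Other alternatives were quantile normalization, centred arrays, no filter, only the arrays compared, an adjusted p of 0.01 and leaving out arrays. Leaving out the 3 arrays that stood apart was also added for the list counts after seeing the data.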

Additional observations from a re-analysis of the deposited data

Results flagged for a closer look

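The difference of HL60 minus U937 itself changed with metformin in 35 of the 184 named genes, by limma's interaction test at an adjusted p below 0.05. Over all genes tested the share was 4.67%. Many named genes were chosen for their untreated difference, which this test subtracts, so their share is not on a like scale with that over all genes. The values in brackets are the difference with metformin minus the difference without, on the log2 scale, so a positive one moved towards HL60. Towards HL60 moved the stress, growth and survival genes STC2 (2.86), DDIT4 (0.97), PMAIP1 (0.84), TRIB1 (0.75), CCND2 (0.71) and MYC (0.51). The genes of myeloid and inflammatory function CCL2 (1.38), MIR223 (0.999), IL18 (0.82), SIRPA (0.80), BCL2A1 (0.71), FPR2 (0.64), MMP8 (0.60), MCEMP1 (0.54) and CTSG (0.40) moved the same way. So did HGF (0.66), SEPTIN3 (0.49) and PGLS (0.48).

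Towards U937 moved TXNIP (-1.76), CLC (-1.61), IL31RA (-1.31), HMGCS1 (-1.27), EPX (-1.21), PEG10 (-0.83), PTGS1 (-0.71), IL6R (-0.67), MIR181B1 (-0.65), GATA2 (-0.56), LINC00926 (-0.54), MEIS1 (-0.50), CHEK1 (-0.47), CES1 (-0.47), ADGRE5 (-0.41), IDH3A (-0.40) and TYMS (-0.32). CLC and EPX, both products of eosinophils, and the transcription factor GATA2 are in this group, as are the sterol gene HMGCS1 and the glucose regulator TXNIP. Each value rests on 12 arrays, 3 of each line with and without metformin.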

How the results depend on the processing

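Without metformin, between 5028 genes (adjusted p of 0.01) and 6082 genes (no filter) passed across the alternatives, against 5948. The replicate block gave 5925 (2949 higher and 2976 lower) and changed no call among the named genes and no count by over 1.5 times. Leaving out 1 array of the 6 gave 5546 to 5790. The count of genes whose line difference changed with metformin depended more on the choices, with 224 on only the arrays compared and 192 at an adjusted p of 0.01, against 497. Over 184 named genes, 2890 of 2941 recomputed values kept their direction and their side of the threshold, 19 changed direction, 17 lost the threshold (ERAP1, FLT3, IL7R, KIT and KRT8) and 15 gained it. Every change of direction was in a gene that had not passed. EPCAM was -0.00355 after quantile normalization, -0.00855 with centred arrays and -0.0881 without the 3 arrays that stood apart. Without those arrays CD34 was -0.0266 and TAPBP -0.00985. With 1 array left out the differences ran from -0.138 to 0.203 for CD34, from -0.0993 to 0.0850 for EPCAM, from -0.0341 to 0.144 for ALB, from -0.0133 to 0.220 for MTAP, from -0.0690 to 0.214 for PF4, from -0.139 to 0.0181 for SPI1 and from -0.0186 to 0.164 for TAPBP. The cause was not tested. Signals under the floor of 4.02 limit the size of differences against them.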

Other observations

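Of 8 tested genes named as siglecs, receptors for sialic acid, 6 were lower in HL60 and 0 higher by limma. Over all genes tested 28% were lower and 27.9% higher. The siglecs were looked up after their values were seen, so the count is a description. SIGLEC12 differed by -3.90, SIGLEC7 by -3.54, SIGLEC6 by -3.11 and SIGLEC10 by -1.47. SIGLEC5 (-2.87) and SIGLEC14 (-2.53) are near-identical copies whose signals may not be separable. SIGLEC11 (0.15) and SIGLEC15 (0.01) did not pass.

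The metallothioneins, also chosen after their values were seen, differed among themselves. MT1G and MT1F (-3.95) were far lower in HL60 and MT1E (-0.97) and MT1X (-0.33) less so. MT4 (0.36) was higher, and MT2A (0.14), MT1M (0.01) and MT1B (-0.02) did not pass.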
